A study of Rattus norvegicus with 6 samples.

Results

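The microRNAs miR-208, miR-208b and miR-499 are made from genes that lie inside cardiac myosin heavy chain genes. They were chosen by assay name, as every assay on the cards named exactly miR-208, miR-208b or miR-499, which gave 3 of 584 miRNA assays. All 3 carry the mouse prefix and were read in 1 well each per sample. Each was measured in all 6 samples, as were 162 assays in all. The samples were left ventricular tissue from the hearts of 3 OLETF rats, labelled as diabetic, and 3 LETO rats, labelled as healthy controls. OLETF is an inbred strain that overeats, lacks the cholecystokinin A receptor, grows obese and becomes diabetic, and LETO is its lean companion strain. Strain, obesity and diabetes therefore cannot be told apart here. The sources used here do not give the rats' age, sex or blood glucose, and do not say whether the samples came from separate litters. The p-values measure the spread between these 6 samples only.

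A miRNA is a short RNA that pairs with messenger RNAs, mainly through its seed (bases 2 to 8), and lowers their output. miR-208 (now named miR-208a) is encoded inside Myh6, the gene of the fast alpha-myosin of heart muscle. miR-208b is encoded inside Myh7, the gene of the slow beta-myosin, and miR-499 inside Myh7b. In rodents the adult ventricle uses mostly alpha-myosin, and a rise of beta-myosin is a classic sign of cardiac stress and of low thyroid hormone. The balance of miR-208b against miR-208 is therefore often read beside the myosin switch, and miR-499 is known to lie downstream of miR-208a in the same circuit.

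In the RefSeq rat assembly GRCr8, all 3 matched a miRNA gene. The miR-208 gene Mir208a lies at chr15:32395552-32395634 on the minus strand, within the span of Myh6 (chr15:32388102-32413663, minus strand). The miR-208b gene Mir208b lies at chr15:32421615-32421726 on the minus strand, within the span of Myh7 (chr15:32416525-32439851, minus strand), and 25980 bases separate the pair of miRNA genes. The miR-499 gene Mir499a lies at chr3:164570612-164570676 on the plus strand, within the span of Myh7b (chr3:164537211-164582441, plus strand). Whether each falls in an intron was not analysed here, since exon positions were not used. The names on the cards do not state the arm of the hairpin, and the arm usually meant by each name is printed, because the seeds tie the 3 together. Capitals mark the seed.
rno-miR-208a-3p: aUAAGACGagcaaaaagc
rno-miR-208b-3p: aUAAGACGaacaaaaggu
rno-miR-499-5p: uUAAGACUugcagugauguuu
The seed of miR-208a and miR-208b is the same, and they are the 2 of 724 RefSeq rat mature miRNAs that carry it. Counted from the 5′ end of miR-208a, they differ over 18 bases at G10A, A16G and C18U, all outside the seed. miR-499 shares 6 of 7 seed bases with both, with G8U as the difference, and these 3 are the mature miRNAs of the table with the same bases at positions 2 to 7. Over the other 11 of the first 18 bases, miR-499 matches miR-208a at 4 and miR-208b at 2.

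Heart muscle miRNAs were measured in every sample and a liver marker in none, while the brain markers were divided. Relative to the median assay, miR-133a of heart and skeletal muscle averaged 11.38 ± 1.28 in the LETO group and 11.16 ± 0.49 in the OLETF group (log2 units, SD, n = 3 each). The liver marker miR-122 and the neuronal marker miR-124 were measured in 0 samples and red-cell miR-451 in 1, while brain-enriched miR-9 was measured in all 6. LETO replicate 3 stood apart: it measured 292 assays against 197 to 228 in the other samples. Its median threshold cycle (Ct) over the 122 assays of card A measured in all samples was 26.5, against 27.96 to 30.02 elsewhere. A Ct is the PCR cycle at which a well crosses the detection threshold, so a low Ct means much of the RNA that the well's assay reads. The group differences of the 3 miRNAs and of their ratios are therefore also given without that sample.

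The 3 miRNAs kept the same order in every sample. miR-499 crossed the threshold first, at 28.6, 28.4 and 25.2 cycles in the LETO samples (replicates 1, 2 and 3, in that order here and below) and at 28.6, 28.7 and 27.4 in the OLETF samples. miR-208 followed at 30.1, 30.5 and 27.8 cycles in LETO and 29.3, 29.8 and 29.3 in OLETF. miR-208b came last, at 33.3, 33.2 and 31.3 cycles in LETO and 33.6, 33.2 and 31.2 in OLETF. LETO replicate 3 had the lowest Ct for miR-499 and miR-208, and shared the lowest values for miR-208b with OLETF replicate 3. Among the 122 card A assays, ranked from the lowest Ct, miR-499 held places 41 to 57, miR-208 places 62 to 88 and miR-208b places 114 to 121. Over all 6 samples miR-499 lay 1.66 ± 0.70 log2 units above miR-208, and miR-208b lay at -3.18 ± 0.80 relative to miR-208 (SD over samples). Both gaps were larger than their spread. Assays can amplify with unequal efficiency, so this is an order of assay signal and not of copies.

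Relative to U6, the small nuclear RNA that the study used as its reference, miR-499 lay lower on average in OLETF, and the groups overlapped. A level here is the U6 Ct of the same card minus the miRNA's Ct, in log2 units if each cycle doubles the product. The LETO samples had miR-499 at -9.37, -10.91 and -7.29, and the OLETF samples at -11.00, -10.72 and -9.15. LETO replicate 3 was highest, LETO replicate 2 lay among the OLETF samples, and 6 of 9 pairs of samples had OLETF lower. The difference was -1.10 (SE 1.38, 95% interval -3.80 to 1.61, limma adjusted p = 0.997; exact permutation p = 0.6, n = 3 each). Without LETO replicate 3 it was -0.15. Among all tested assays, 0% (0 of 193) passed an adjusted p of 0.05 with U6 in limma, 1.04% (2) had an unadjusted p under 0.05, and 0.518% (1) did in an ordinary linear model per assay. A lower mean in OLETF was found for 80.8% of them, and the median difference was -0.60. With samples weighted by how well they fitted (array weights), 15.5% (30 of 193) passed, and none of the 3 miRNAs was among them (miR-499 -1.40, limma adjusted p = 0.144).

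miR-208, the partner of alpha-myosin, showed no separation of the groups with U6. Its levels were -10.86, -13.08 and -9.87 in LETO and -11.66, -11.90 and -11.06 in OLETF. All 3 OLETF values fell inside the LETO range. The difference was -0.27 (SE 1.38, 95% interval -2.98 to 2.44, limma adjusted p = 0.997), and 0.43 without LETO replicate 3. miR-208b, the partner of beta-myosin, lay at -14.11, -15.75 and -13.37 in LETO and -15.99, -15.25 and -13.02 in OLETF. OLETF held both the highest and the lowest value. The difference was -0.34 (SE 1.38, 95% interval -3.05 to 2.36, limma adjusted p = 0.997), and 0.18 without LETO replicate 3. These intervals are wide enough to hold a change of over 4-fold in either direction. The authors' deposited table gave linear ratios of OLETF over LETO of 0.829 for miR-208, 0.787 for miR-208b and 0.467 for miR-499, computed from the same Ct values.

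The U6 levels of the 3 miRNAs moved together from sample to sample. The distance from U6 to the median card A assay was 10.8, 12.1 and 8.61 cycles in LETO and 11.3, 11.1 and 9.74 in OLETF. This distance enters every U6 level of a sample alike. The same differences were therefore computed against the median Ct of the 122 card A assays measured in all samples, called the card median here. Assays of card B, such as miR-206, were set against the median of the 40 card B assays measured in all samples. This reference assumes that the typical miRNA is equal between samples.

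Relative to the card median, miR-499 was lower in every OLETF sample than in every LETO sample. The LETO samples had levels of 1.45, 1.14 and 1.32, and the OLETF samples 0.28, 0.35 and 0.59. The lowest LETO and the highest OLETF sample lay apart, and the spread within each group was small (SD 0.153 in LETO and 0.161 in OLETF, against 1.82 and 1.00 with U6). Both SDs lay below the 0.282 cycles found for single wells of card B at a mean Ct up to 30. With 1 well per sample, 3 samples a group may therefore understate this spread. The difference was -0.90 (SE 0.342, 95% interval -1.68 to -0.12, n = 3 each), or 0.537 times the LETO level. It did not pass after adjustment over all 193 assays (limma adjusted p = 0.622, unadjusted 0.0290), and the exact permutation p of 0.1 is the smallest that 3 against 3 samples allow. Of 162 assays, 9.26%, miR-499 included, lay lower in every OLETF sample and 4.32% higher. Of the 193 tested assays, 6.22% had an unadjusted p under 0.05 in limma. At adjusted p under 0.05, 0% did in limma, and 0% in the ordinary model, where 5.7% (11) had an unadjusted p under 0.05. A lower mean in OLETF was found for 67.4% of assays, the median difference of all was -0.31, and 11.4% of them lay below miR-499. Without LETO replicate 3 the difference of miR-499 was -0.89, and within replicates 1 and 2 alone it was -0.98.

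miR-208 and miR-208b did not separate with the card median either. miR-208 lay at -0.037, -1.02 and -1.27 in LETO and at -0.38, -0.83 and -1.32 in OLETF, so that the ranges overlapped almost entirely. The difference was -0.067 (SE 0.459, 95% interval -1.12 to 0.98, limma adjusted p = 0.920), and -0.31 without LETO replicate 3. miR-208b lay at -3.29, -3.69 and -4.76 in LETO and at -4.71, -4.18 and -3.28 in OLETF. Replicate 3 was the lowest of the LETO samples and the highest of the OLETF samples. The difference was -0.14 (SE 0.530, 95% interval -1.35 to 1.07, limma adjusted p = 0.887), and -0.57 without LETO replicate 3. Within replicates 1 and 2 it was -0.95 (SE 0.333, limma adjusted p = 0.280), with both OLETF samples below both LETO samples. The share of all assays that separated in this way within replicates 1 and 2 was not computed. The single samples of replicate 3 stood the other way round. The intervals of miR-208 and miR-208b reach beyond a 2-fold fall, so a change of the size seen for miR-499 lies inside both.

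**Figure D1:**
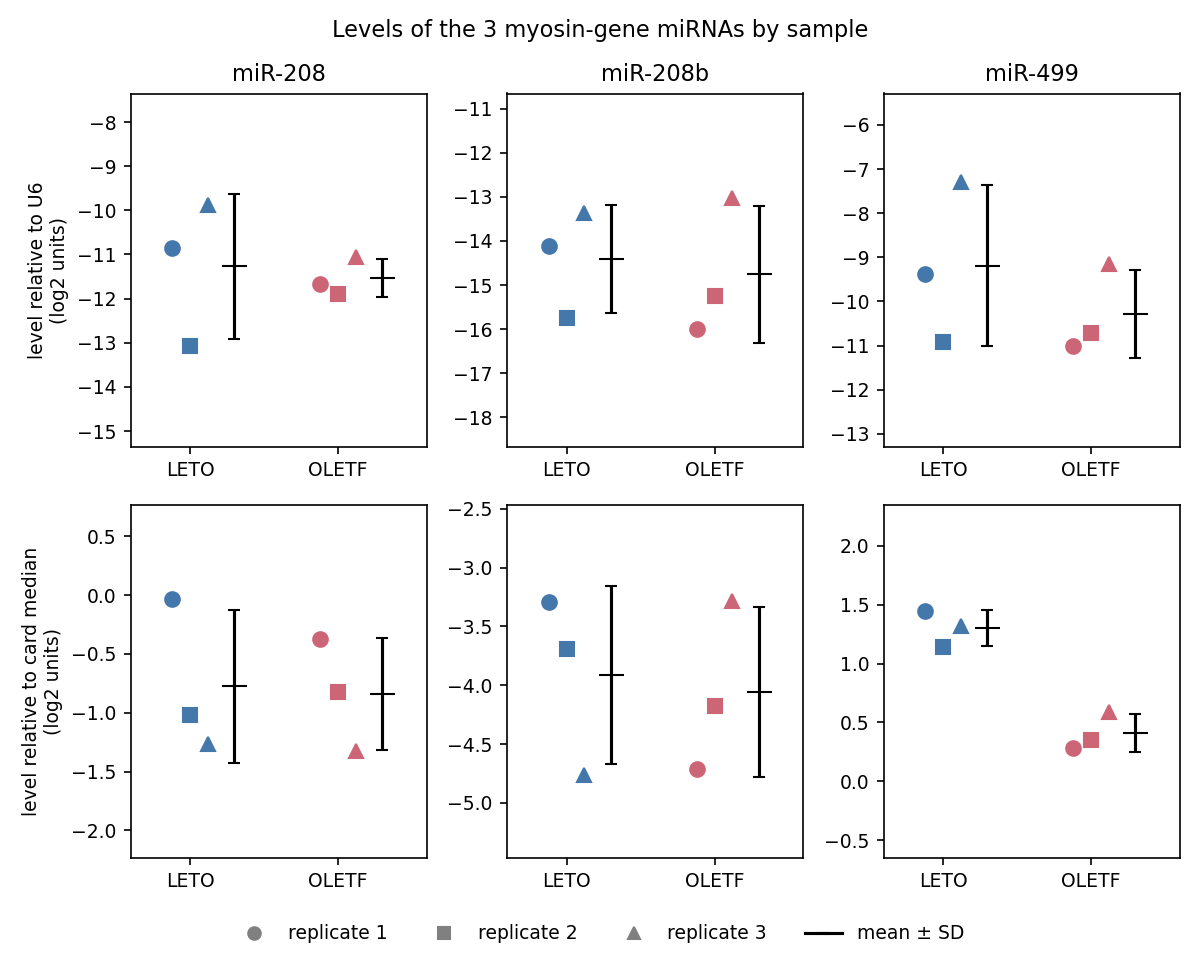
Levels of miR-208, miR-208b and miR-499 (vertical axes, log2 units) in the 3 LETO and 3 OLETF samples, relative to U6 (top) and to the card median (bottom); each symbol is a sample and bars are mean ± SD. With U6 the groups overlap for all 3, and with the card median miR-499 lies between 1.14 and 1.45 in LETO and between 0.28 and 0.59 in OLETF.

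**Figure D2:**
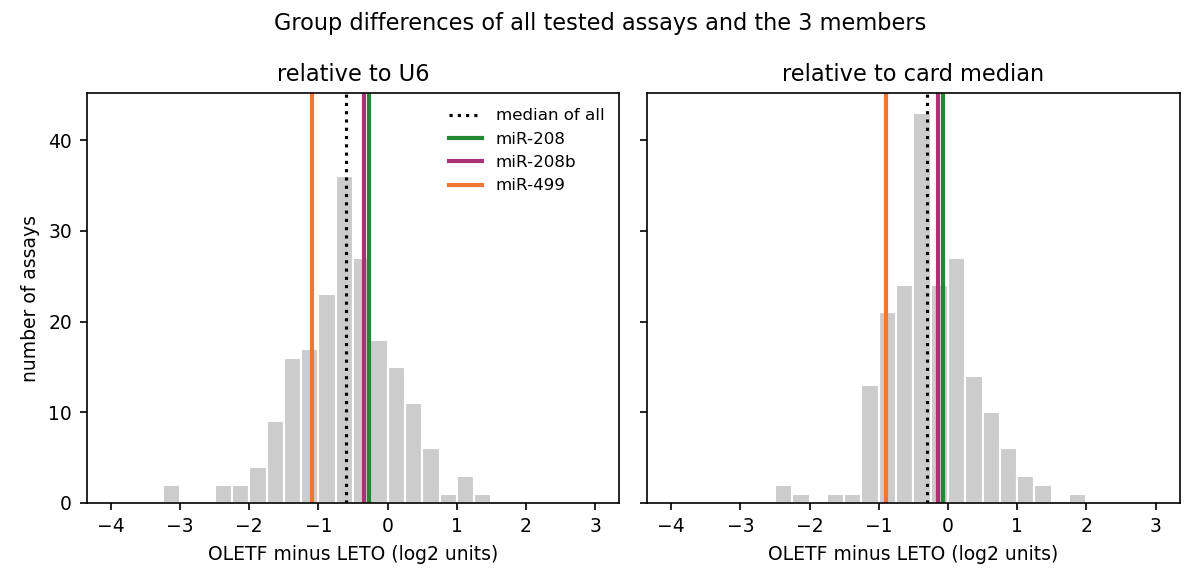
Histograms of the difference of OLETF minus LETO (horizontal axes, log2 units) over the 193 tested assays with each reference, with vertical lines for the 3 miRNAs and, dotted, the median of all assays. miR-499 lies below the median of all assays with both references (-1.10 against -0.60, and -0.90 against -0.31), and miR-208 and miR-208b lie above it.

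The separation of miR-499 depended on the reference. OLETF was lower in 9 of 9 pairs with the card median, the card mean, the whole-array median and the mean of snoRNA135 and U87, other small RNAs on the same card. Of all 162 assays measured in all samples, 9.26% lay lower in every OLETF sample with the card median and 0% with U6. That share was not computed for the other references. The card median, card mean and whole-array median draw on the same measured assays, so they are not independent of each other. The mean difference with snoRNA135 and U87 was -0.54 and with the whole-array median -0.61. It was lower in 6 of 9 pairs with U6 and in 5 of 9 with U6 pooled over both cards. Against the other muscle miRNAs of card A, a reference chosen after seeing the data, OLETF was lower in 6 of 9 pairs and the difference was -0.55 (limma adjusted p = 0.762).

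The ratio of miR-208b to miR-208 did not differ between the groups beyond their spread. As both assays lie on card A, no reference enters this ratio. The ratio of miR-208b over miR-208 was -3.25, -2.67 and -3.49 log2 units in the LETO samples, or 0.105, 0.157 and 0.0888 on the linear scale. In OLETF it was -4.33, -3.35 and -1.96, or 0.0496, 0.0981 and 0.258. The means were nearly equal, at -3.14 ± 0.43 for LETO and -3.21 ± 1.19 for OLETF (SD, n = 3 each), while the OLETF samples held both the lowest and the highest ratio. The difference was -0.075 (exact permutation p = 0.9, two-sided, and 0.9 after Benjamini-Hochberg adjustment over the 3 ratios). The 9 pairs of samples ran from -1.66 to 1.54. The difference was -0.25 without LETO replicate 3, 0.48 without OLETF replicate 1 and -0.88 within replicates 1 and 2.

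The precision of single wells bears on this ratio. Over card B assays with both of 2 wells under 35 cycles, single wells had an SD of 0.282 cycles at a mean Ct up to 30 (84 pairs), 0.356 from 30 to 32 (27 pairs) and 0.666 from 32 to 35 (78 pairs). miR-499 lay in the first range in all samples, and miR-208b lay above 32 in 4 of 6 samples. These values come from card B, while the 3 miRNAs and their ratios were read on card A. Duplicate wells of the 3 miRNAs themselves were not on the cards.

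miR-499 lay lower in OLETF also against miR-208 and miR-208b on average, with overlap. The log2 ratio of miR-499 over miR-208 was 1.49, 2.16 and 2.59 in LETO and 0.66, 1.18 and 1.91 in OLETF. OLETF was lower in 8 of 9 pairs, the exception being OLETF replicate 3 against LETO replicate 1. The difference was -0.83 (exact permutation p = 0.2, adjusted 0.45, n = 3 each), and -0.58 without LETO replicate 3. The log2 ratio of miR-499 over miR-208b was 4.74, 4.83 and 6.08 in LETO and 4.99, 4.53 and 3.87 in OLETF. OLETF was lower in 7 of 9 pairs. The difference was -0.75 (exact permutation p = 0.3, adjusted 0.45, n = 3 each), -0.32 without LETO replicate 3 and -0.028 within replicates 1 and 2, so its size rested on replicate 3 of both groups.

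**Figure D3:**
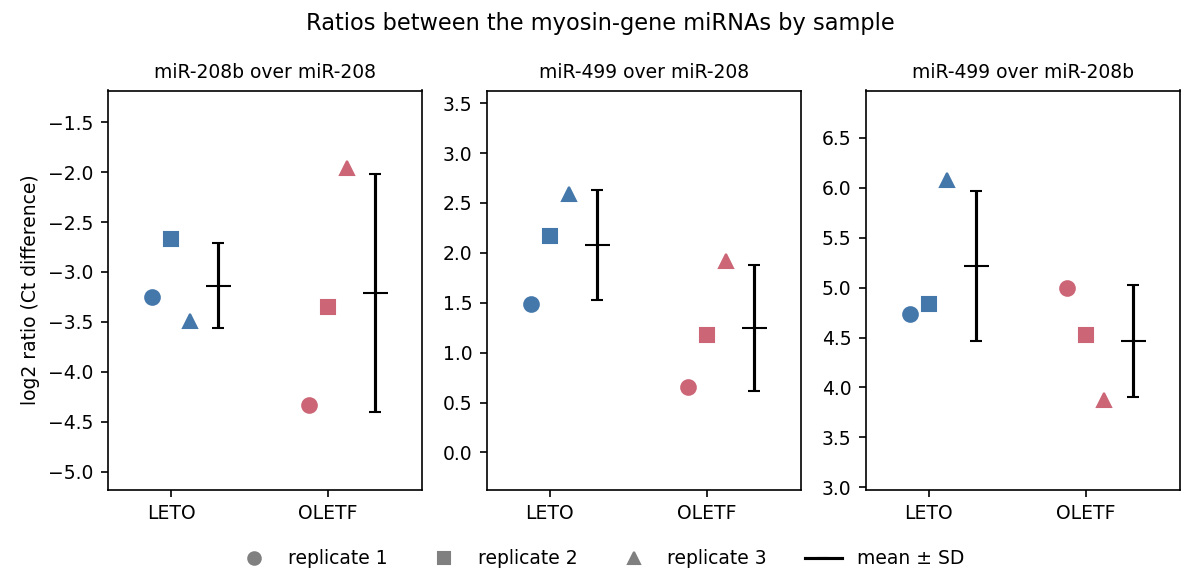
Log2 ratios (vertical axes, differences in Ct) of miR-208b over miR-208, miR-499 over miR-208 and miR-499 over miR-208b in each sample, with mean ± SD per group. The ratio of miR-208b over miR-208 runs from -3.49 to -2.67 in LETO and from -4.33 to -1.96 in OLETF, and OLETF means of the ratios with miR-499 lie below those of LETO.

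Of the other muscle miRNAs, 5 of 6 tested assays lay lower in OLETF with either reference, where 80.8% of all tested assays did with U6 and 67.4% with the card median, and 0 passed the adjusted p (limma). Their median difference was -0.44 with the card median, against -0.31 for all assays, and -0.64 with U6, against -0.60. The rat assay of miR-1, a major miRNA of heart muscle, lay at 6.36, 6.46 and 6.36 in LETO and at 5.98, 5.88 and 5.69 in OLETF relative to the card median. It thus was lower in every OLETF sample, like miR-499, by -0.54 (SE 0.336, limma adjusted p = 0.632). The mouse assay of miR-1 differed by -1.11 (SE 0.685) and overlapped, lower in 7 of 9 pairs. The assay of miR-133a differed by -0.22 (SE 0.635) and that of miR-133b by -0.34 (SE 0.383), both with overlap. miR-206, known from skeletal muscle, was measured in 3 LETO and 2 OLETF samples and differed by -1.10 (SE 0.636). miR-486, found in muscle and red cells, lay higher by 0.47 (SE 0.622).

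Fewer heart muscle cells and less of a miRNA per cell cannot be told apart in tissue RNA. Markers of other heart cells, as summed levels relative to the card median (log2), overlapped between the groups. The endothelial pair miR-126-3p and miR-126-5p ran from 8.74 to 9.60 in LETO and from 8.88 to 9.51 in OLETF. The smooth muscle pair miR-143 and miR-145 ran from 5.08 to 6.15 and from 4.74 to 5.91, and the fibroblast markers miR-199a-3p, miR-214 and miR-21 from 2.25 to 3.06 and from 2.04 to 2.96. The 3 of 4 leukocyte markers measured in all samples (miR-223, miR-142-3p and miR-150) ran from 5.96 to 8.03 and from 6.81 to 7.81. Single assays of a list could move in opposite directions (OLETF minus LETO). The endothelial pair differed by 0.14 and -0.56, and the fibroblast markers by -0.22, 0.38 and -0.34, in the order named. The leukocyte markers differed by 0.090, -0.49 and 0.19, and the smooth muscle pair by -0.29 and -0.64. The endothelial sum rests mostly on miR-126-3p, which averaged -1.45 relative to U6, against -6.04 for miR-126-5p. The part of the cell makeup in the lower miR-499 was not tested.

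The 3 miRNAs did not share a pattern across samples once the card median was taken off. In plain Ct they rose and fell together over the 6 samples, which differ in overall Ct, LETO replicate 3 having the lowest median (Pearson r 0.70 for miR-208 with miR-208b, 0.88 for miR-208 with miR-499, 0.85 for miR-208b with miR-499). With the card median the same 3 values were 0.091, 0.064 and 0.27. Among the 161 other assays measured in all 6 samples, those most like miR-499 were miR-466d-3p (r 0.94), miR-29b (r 0.93) and miR-181a (r 0.90), against a median r of 0.38 over all. Their differences were -2.27, -0.63 and -1.06, and as they were picked for their likeness to miR-499, whose levels separate the groups, a separation of their own is part of that choice. Of all 162 assays, 9.26% lay lower in every OLETF sample. Most like miR-208 were miR-25 (r 0.85), miR-223 (r 0.81) and miR-30e (r 0.74). Most like miR-208b were miR-106a (r 0.91), miR-138 (r 0.87) and miR-532-3p (r 0.86). These values describe 6 samples and carry no test.

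**Figure D4:**
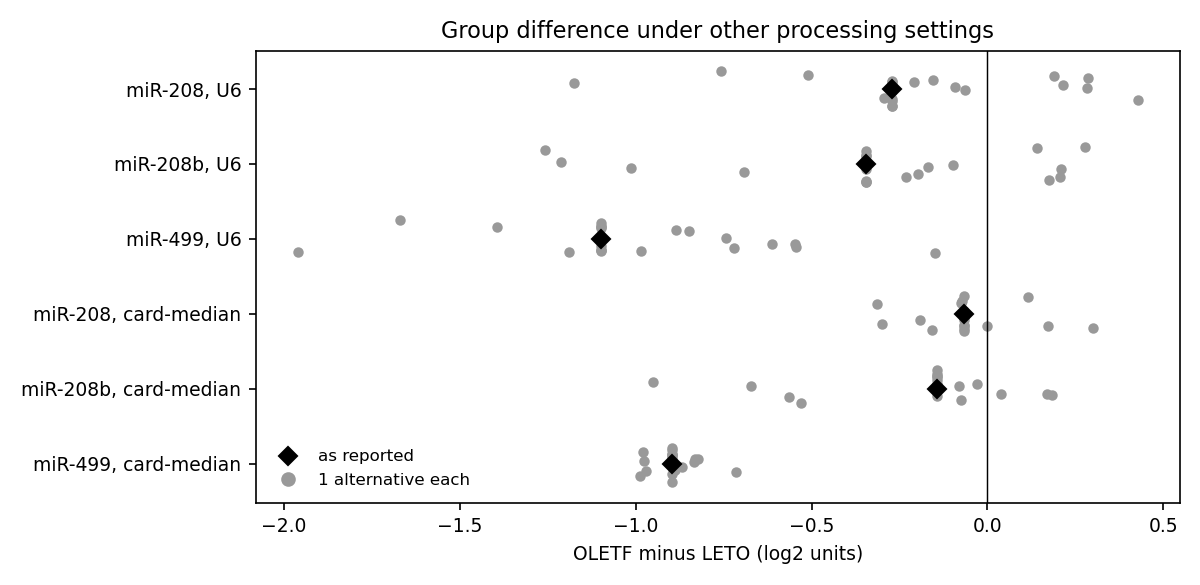
Difference of OLETF minus LETO (horizontal axis, log2 units) for each miRNA and reference as reported (diamonds) and under each alternative setting (grey points, spread vertically to be visible). With the card median miR-499 stays between -0.99 and -0.72, and miR-208 and miR-208b lie on both sides of 0.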

How the data were processed

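Left ventricular RNA was converted to cDNA with a stem-loop primer pool and quantified on TaqMan cards for rodent miRNAs, per the labels' protocols; a label field also names SYBR Green. The deposited Ct table held 768 wells per sample, read as 2 blocks of 384 (cards A and B), with undetermined wells marked. The authors' normalized table held delta Ct, which is log2 with reversed sign; for the 3 members they equalled Ct minus the mean U6 Ct of card A. The authors' fold-change table held a linear ratio of OLETF over LETO. Instrument threshold settings are not given in the sources used here.

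Each assay's Ct was the mean of its determined wells and counted as measured below 35. Assays measured in at least 2 of 3 samples per group (193 of 584) were fitted with limma 3.58.1 (lmFit, then eBayes; two-sided) under R 4.3.3, and p-values were adjusted by Benjamini-Hochberg and called under 0.05. The fit was tested on simulated data with independent noise and shifts larger than those of the 3 miRNAs. That test did not cover smaller differences, missing values or a shift shared by all assays of a sample. With U6 the SE was in effect pooled over assays, so it is the same for each member. Its degrees of freedom were pooled as well, as if assays were independent. The distance from U6 shifts all assays of a sample alike, so the limma intervals and p-values with U6 may be too small. Ratios between members were set against each other by exact two-sided permutation. Precision is limited by 3 samples a group. The named miRNAs were the members, the other muscle miRNAs, fixed cell markers and the 3 assays most alike in pattern. Members and lists were chosen with earlier results of these data known. Replicate numbers were not taken as pairs: deviations from the group means correlated at -0.088, 0.23 and 0.62 with U6, and at 0.094, 0.22 and 0.50 with the card median. Replicate 3 was also treated as a batch, as an assumption, since the sample titles name none. The deposited ratios of 380 of 380 card B wells were recovered when assay means of replicate 3 were used, against 194 well by well (within 0.001 log2). This bears on how those ratios were computed and does not show a shared run. Alternatives were other references, Ct limits and filters, blocks, weights and samples left out.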

Additional observations from a re-analysis of the deposited data

How the results depend on the processing

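The difference of miR-499 stayed below 0 in all 23 alternatives to the U6 result, other references included (-1.96 to -0.15, limma adjusted p 0.144 or more). Its unadjusted p was under 0.05 in 1 of these, with array weights. It also stayed below 0 in all 19 with the card median (-0.99 to -0.72, adjusted p 0.221 or more, unadjusted p under 0.05 in 15). Many of those 15 kept the reported estimate, so they are not separate results. The Ct limits, filters, filled missing values, blocks and the ordinary model could not change the estimate of miR-499 (-1.10 with U6, -0.90 with the card median). These settings therefore say nothing on its sign, and its range rests on the other settings. miR-208 and miR-208b took the other sign in some alternatives. With U6, miR-208 turned to 0.19 within replicates 1 and 2, and lay between -1.17 and 0.43 when 1 sample was left out. In place of U6, the reference of the whole-array median gave 0.22, snoRNA135 and U87 0.28, and the other muscle miRNAs (chosen after seeing the data) 0.28. miR-208b was 0.14, 0.21 and 0.21 with these 3 references, and with U6, leaving out 1 sample, ran from -1.21 to 0.28. With the card mean in place of the median, miR-208 was 0.11 and miR-208b 0.040. With the card median and 1 sample left out they ran from -0.31 to 0.30 and from -0.57 to 0.18. The ratio of miR-208b to miR-208 ran from -0.70 to 0.48 with 1 sample left out. The cause was not tested. With the replicate block the differences of the members equalled those reported (miR-499 -1.10 with U6 and -0.90 with the card median), and no member passed. The number of assays called with U6 was 1 with the replicate block, 1 with replicate 3 as a batch block and 30 with array weights, none of them a member (weights 0.237 to 3.70; miR-499 -1.40, limma adjusted p = 0.144). A Ct limit of 32 left miR-208b without 2 samples a group, and the cards held no other assay of the members, so these were not run. 3 samples a group limit every value.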
